A study of Mus musculus with 3 samples.

Results

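Il15 encodes interleukin-15, a cytokine that natural killer cells and memory CD8 T cells need to survive and divide. Il15ra encodes the alpha chain of its receptor, which binds the cytokine inside the producing cell and carries it to the surface, where it is presented to neighbouring cells that bear the beta chain (Il2rb) and the common gamma chain (Il2rg). Presentation in this form needs both transcripts in the same cell. In mouse dendritic cells (DC) and macrophages both genes are known to respond to type I interferon and to Toll-like receptor agonists. In the Peyer's patches, the lymphoid follicles of the small intestine, the phagocytes that could present the complex include conventional DC of the XCR1-positive line (cDC1) and of the SIRPα-positive line (cDC2), the lysozyme-expressing LysoDC and the lysozyme-expressing macrophages.

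The pair was taken by gene name from the matrix of each library, 2 of 27998 genes. It was followed in 3 single-cell libraries of CD11c-positive, live-sorted Peyer's patch phagocytes from female C57BL/6Rj mice. Mice of the CpG library had received 125 µg of this oligonucleotide, a stimulant of TLR9, and those of the R848 library 10 µg of R848, a small-molecule agonist of TLR7, both by the intraperitoneal route and 9 h before. The Control library came from mice with no treatment, and a vehicle-injected group was not analysed here. Each library pooled cells of 12 mice, from 85 Peyer's patches after CpG, 90 after R848 and 88 in Control, so there is 1 library per condition and no replicate. The differences below therefore compare 3 libraries. Every interval is an exact 95% interval that covers counting error only, and no test between conditions was possible.

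The libraries held 5049 (CpG), 5133 (R848) and 5344 (Control) barcodes and between 43537067 and 46556726 UMIs, the deduplicated transcript counts of the assay. After filters and removal of likely doublets 4821, 4898 and 5079 cells remained. Any pair of libraries had 33 to 42 barcode sequences in common. Cells were placed in classes by summed marker transcripts, and the cell surface markers of the sort were not used. A cell with at least 4% of its UMIs from lysozyme phagocyte genes (Lyz1, Lyz2, C1qa and others) was called a lysozyme phagocyte and split by the presence of a Cd4 UMI, as Cd4 marks the macrophages among them. Of the remaining cells, those with at least 0.4% from maturation genes (Ccr7, Fscn1, Ccl22 and others) were called mature DC. A small class passed both cutoffs, and its cells are called mature lysozyme phagocytes. The others were resting cDC1, resting cDC2, DC with too few subset markers, proliferating cells or B cells. Levels are given in CPM, the UMIs of a gene per 1000000 UMIs of the class. Ccr7 stood at 4394, 3448 and 1593 CPM in mature DC of CpG, R848 and Control. In resting cDC2 it stood at 64.1, 42.0 and 48.0 CPM. Ccr7 is one of the summed maturation genes, so this difference follows from the cutoff and is no separate check of the classes. Mature DC made up 58.8% of cells after CpG, 47.7% after R848 and 10.4% in Control, shares that the sort can set. The cutoffs were set with the data in view. Within a factor of 2 of the maturation cutoff lay 218 (CpG), 191 (R848) and 603 cells (Control). Within a factor of 2 of the lysozyme cutoff lay 296 (CpG), 1029 (R848) and 707 cells (Control).

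In the annotation of the GRCm38 mouse assembly, Il15 (ENSMUSG00000031712) lies on chromosome 8 from 82331632 to 82403222 on the minus strand and has 10 annotated transcripts, 4 of them protein-coding. Il15ra (ENSMUSG00000023206) lies on chromosome 2 from 11705290 to 11734317 on the plus strand, with 18 annotated transcripts, 11 of them protein-coding. No other annotated gene overlaps either. The matrix counts whole genes from their 3′ ends, so neither the transcript nor the start site used in a cell is known. The RefSeq windows of 250 bases before and 50 bases after a start hold 2 Il15ra starts (GRCm38.p6). Only Il15ra is shown, as the set held no window of Il15. Of the pair, Il15ra had the larger treated-to-Control ratios in mature DC, and interferon regulatory factors are known to act on both genes. Capitals mark matches to AANNGAAA, letters of an interferon regulatory factor site, searched on both strands.
Il15ra start 1, chr2:11705043-11705342, plus strand: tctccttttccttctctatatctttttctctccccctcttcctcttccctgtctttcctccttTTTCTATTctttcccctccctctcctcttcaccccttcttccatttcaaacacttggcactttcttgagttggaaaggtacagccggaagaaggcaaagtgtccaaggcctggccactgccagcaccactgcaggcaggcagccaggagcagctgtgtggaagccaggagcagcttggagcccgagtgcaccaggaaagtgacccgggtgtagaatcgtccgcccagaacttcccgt
Il15ra start 2, chr2:11705462-11705761, plus strand: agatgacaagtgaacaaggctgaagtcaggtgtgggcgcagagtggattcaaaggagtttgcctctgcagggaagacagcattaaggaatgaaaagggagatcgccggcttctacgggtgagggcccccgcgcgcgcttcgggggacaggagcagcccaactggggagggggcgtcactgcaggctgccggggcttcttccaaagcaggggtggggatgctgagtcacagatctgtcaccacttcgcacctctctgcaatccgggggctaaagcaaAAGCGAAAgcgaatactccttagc
The first window holds the match on its minus strand, 187 bases before the start, and the second holds it on its plus strand, beginning 27 bases after the start. Of all 32851 windows of this length, 23.9% hold the same letters on either strand. Neither window holds the longer GAAANNGAAA (in 3.44% of windows; every such match also contains AANNGAAA), the NF-κB letters GGGNNTTTCC (1.63%) or the STAT letters TTCNNNGAA (8.30%). A match is a description of the letters only.

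Il15 was most abundant in mature DC and much higher there after either agonist. It was counted at 85.4 CPM in mature DC after CpG (interval 81.1 to 89.8; 1508 UMIs in 2835 cells), at 84.0 CPM after R848 (79.3 to 88.9; 1198 UMIs in 2336 cells) and at 19.2 CPM in Control (14.6 to 24.8; 58 UMIs in 526 cells). The intervals of both treated libraries lay far above that of Control and overlapped each other. The ratio to Control was 4.45 after CpG (3.42 to 5.89) and 4.38 after R848 (3.36 to 5.80), and the ratio of CpG to R848 was 1.02 (0.942 to 1.10). The per-cell share was also higher in both treated libraries: an Il15 UMI was seen in 33.9%, 35.3% and 8.56% of mature DC at median depths of 5694, 5492 and 5138.5 UMIs. In B cells, used as a background, the share was 9.52%, 1.32% and 2.70% at median depths of 6150, 6428 and 6092.5 UMIs. The B cells of the CpG library also carried Ccr7 at 809 CPM and Fscn1 at 938 CPM, against 36.3 and 61.1 CPM in Control B cells.

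Il15ra was also most abundant in mature DC, with larger ratios to Control in that class. Mature DC held it at 266 CPM after CpG (258 to 273; 4692 UMIs), 214 CPM after R848 (206 to 222; 3051 UMIs) and 29.8 CPM in Control (23.9 to 36.6; 90 UMIs). The ratio to Control was 8.92 after CpG (7.24 to 11.1) and 7.18 after R848 (5.82 to 8.96). Unlike Il15, its level was higher after CpG than after R848, by a factor of 1.24 (1.19 to 1.30). The Il15ra share of positive mature DC was 61.5%, 56.1% and 11.8%, against 20.6%, 9.21% and 10.8% of B cells in CpG, R848 and Control. Single mature DC reached 8 Il15 UMIs and 16 Il15ra UMIs, both in the CpG library. Both genes were past a 2-fold ratio with an interval above 1 in both treated libraries, as were 10.5% of the 8123 genes measured in mature DC for CpG and 8.35% of 8039 for R848.

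In resting DC the levels were low, and free RNA sets a floor under them. From C1q transcripts found in mature DC, free RNA was estimated to add 1.05, 0.883 and 0.206 CPM of Il15 and 3.43, 2.15 and 0.553 CPM of Il15ra to any cell of CpG, R848 and Control. Resting cDC2 had 3.45, 5.11 and 2.06 CPM of Il15, from 12, 14 and 20 UMIs, and 15.8, 12.8 and 7.71 CPM of Il15ra, from 55, 35 and 75 UMIs. All 3 libraries stood above the free RNA value. The Il15 interval of CpG (1.78 to 6.02 CPM) overlapped that of Control (1.26 to 3.18 CPM), and the ratio of 1.68 had an interval that included 1 (0.747 to 3.60). For R848 the Il15 ratio was 2.48 (1.16 to 5.17), and for Il15ra the ratios were 2.05 (1.42 to 2.94) after CpG and 1.66 (1.08 to 2.504) after R848. Il15ra passed the 2-fold ratio after CpG, where 4.04% of genes in resting cDC2 did, and Il15 after R848, where 4.51% did; Il15 was too low to be measured by this rule after CpG.

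Resting cDC1 could be read in Control only, where they held 9.18 CPM of Il15 (6.05 to 13.4; 27 UMIs in 383 cells) and 7.82 CPM of Il15ra (4.96 to 11.7; 23 UMIs). The treated libraries left 10 (CpG) and 3 (R848) such cells. Among these classes of Control the order of Il15 ran from mature DC to resting cDC1, Cd4-positive lysozyme phagocytes (3.96 CPM; 2.45 to 6.06), Cd4-negative lysozyme phagocytes (2.84 CPM; 2.03 to 3.86) and resting cDC2. The interval of resting cDC1 met that of the Cd4-positive phagocytes at its edge, and the 3 lowest classes overlapped their neighbours. For Il15ra the Control order was different: mature DC were followed by Cd4-positive lysozyme phagocytes at 21.7 CPM (17.9 to 26.1), then Cd4-negative ones at 10.1 CPM (8.55 to 11.9), resting cDC1 and resting cDC2. The first pair overlapped, as did the last 3 classes. Resting cDC1 thus stood second for the cytokine and in the lowest group for the receptor chain.

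**Figure D1:**
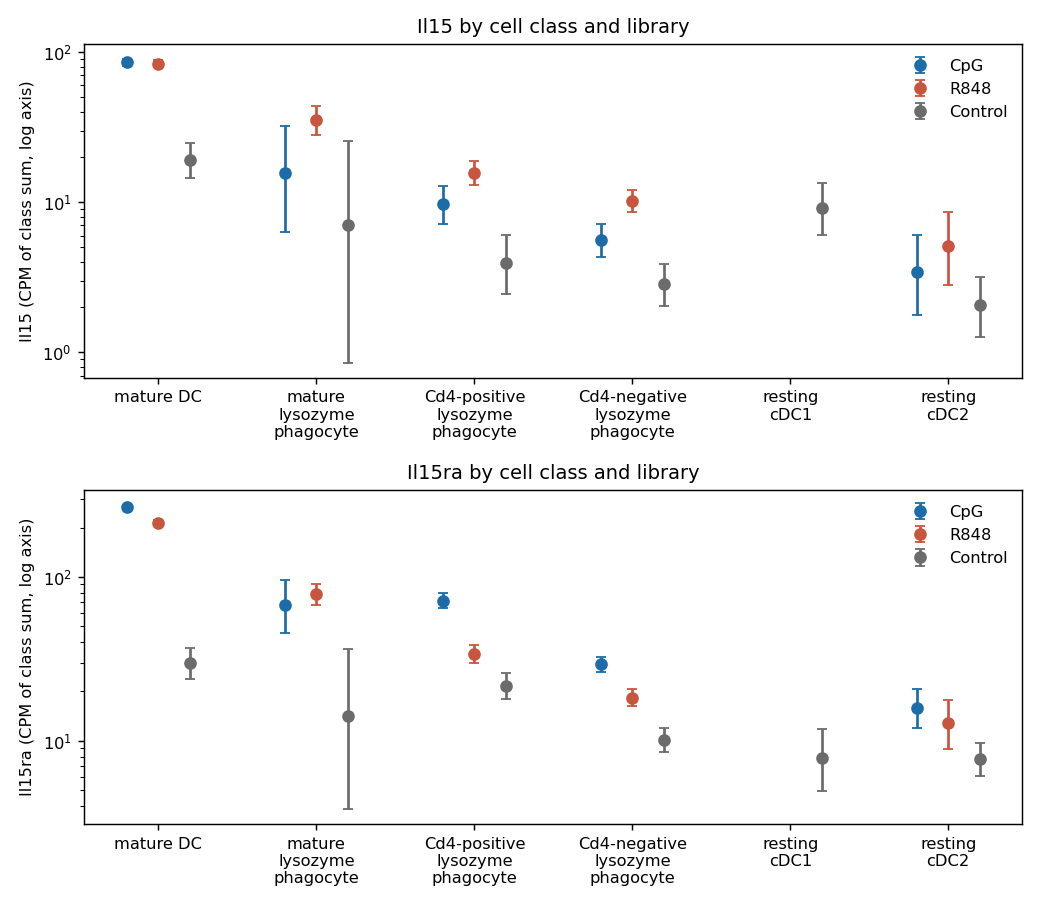
Level of Il15 (top) and Il15ra (bottom) in CPM of the summed UMIs of each class (log axis), for CpG, R848 and Control; points are the class sums and bars exact 95% counting intervals, and classes under 30 cells (treated resting cDC1) are not drawn. The treated mature DC sit at 84.0 to 85.4 CPM of Il15 and 214 to 266 CPM of Il15ra, above every other class, and in lysozyme phagocytes without maturation markers R848 lies above CpG for Il15 and below it for Il15ra.

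Within each library both genes were higher in mature DC than in resting cDC2, in Control as well. The mature-to-resting ratio of Il15 was 24.8 after CpG (14.1 to 48.0), 16.4 after R848 (9.76 to 30.2) and 9.33 in Control (5.53 to 16.4). For Il15ra it was 16.8 (12.9 to 22.3), 16.8 (12.0 to 24.1) and 3.86 (2.81 to 5.32). The Control intervals for Il15ra lay below those of both treated libraries, while for Il15 the Control interval overlapped both treated ones. Both genes passed the 2-fold ratio in every library, as did 13.3%, 12.6% and 8.24% of genes measured in CpG, R848 and Control. Against resting cDC1 of the same Control library, mature DC had 2.09 times the Il15 (1.30 to 3.43) and 3.81 times the Il15ra (2.39 to 6.31). Mature DC supplied 86.5%, 75.1% and 32.6% of all Il15 UMIs and 82.9%, 79.4% and 18.5% of all Il15ra UMIs in CpG, R848 and Control. In the same order they held 42.9%, 32.5% and 7.41% of the UMIs of all genes, so these shares also follow the size of the class.

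Along the scale of maturation transcripts the levels climbed by steps and not at the cutoff alone. In DC with 80 to 120 maturation UMIs per 10000, Il15 stood at 41.8 CPM (CpG), 39.8 CPM (R848) and 10.4 CPM (Control), with 250 to 300 at 88.9, 99.97 and 75.0 CPM, and with 300 or more at 108, 101 and 43.0 CPM. Il15ra at 80 to 120 stood at 84.8, 75.3 and 22.8 CPM, at 250 to 300 at 315, 271 and 162 CPM, and at 300 or more at 325, 253 and 61.5 CPM. In every bin from 80 upward Control was the lowest library for both genes. For Il15ra its intervals there lay apart from those of both treated libraries, whereas for Il15 they did so at 80 to 120 and at 200 to 250 and overlapped at least one of them in the other bins. At 250 to 300 the Control interval of Il15 (39.9 to 128 CPM) overlapped both. Below 80 the Il15 of Control was not always lower: it was 5.59 CPM at 40 to 80, against 4.70 CPM in CpG, and 4.43 CPM under 10, against 1.57 (CpG) and 2.84 CPM (R848). The bins below the cutoff pool all resting DC, and Control had 383 resting cDC1 among them, against 10 (CpG) and 3 (R848). Those Control cDC1 held 9.18 CPM of Il15 at a median of 4.69 maturation UMIs per 10000. In resting cDC2 alone Control was lowest, at 2.06 CPM against 3.45 (CpG) and 5.11 CPM (R848), with overlapping intervals. The Control bins at 250 to 300 and at 300 or more held only 30 and 26 cells and 13 and 7 Il15 UMIs. The libraries differed in how far their cells reached along this scale. The median mature DC had 248 (CpG), 217 (R848) and 101 (Control) maturation UMIs per 10000. Restricted to cells with at least 200, the log2 ratio to Control was 1.04 (CpG) and 1.01 (R848) for Il15, against 2.15 and 2.13 over all mature DC. For Il15ra it was 1.81 and 1.53, against 3.16 and 2.84. The Control bins under this restriction (200 to 250, 250 to 300 and 300 or more) held 53, 30 and 26 cells. With 1 library per condition, treatment and maturation cannot be separated, and the part of either in the ratio was not tested.

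**Figure D2:**
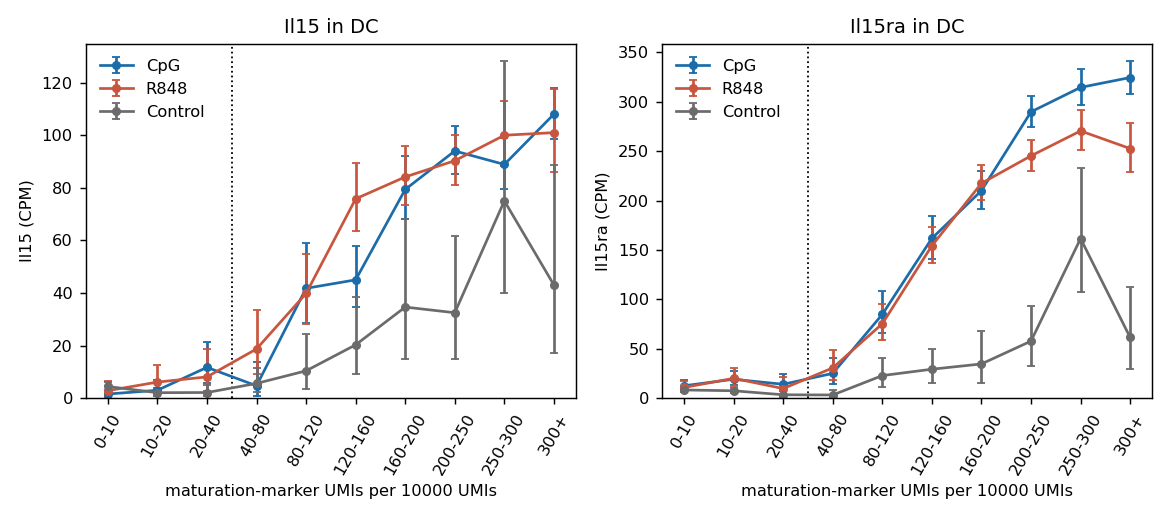
Il15 (left) and Il15ra (right) in CPM against the number of maturation-marker UMIs per 10000 UMIs, for DC of CpG, R848 and Control, in bins of at least 20 cells; bars are exact 95% counting intervals and the dotted line is the cutoff for mature DC. Both genes stand higher from 80 upward than below the cutoff in all 3 libraries, up to 325 CPM of Il15ra in the top bin of CpG. The bin just above the cutoff, 40 to 80, is not always higher: Il15 of CpG is 4.70 CPM there and 11.7 CPM at 20 to 40. Il15ra of Control is 3.20 CPM there and 8.27 CPM under 10. The Control line is lowest from 80 upward, with wide bars in its small upper bins, where it stands at 75.0 and then 43.0 CPM of Il15.

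The mature DC that kept a trace of cDC1 origin held more of both transcripts than those with Sirpa. Mature DC with an Xcr1 or Clec9a UMI and no Sirpa UMI had 109, 97.0 and 15.7 CPM of Il15, in 92, 252 and 76 cells of CpG, R848 and Control. Those with a Sirpa UMI alone had 49.6, 61.7 and 5.61 CPM in 378, 304 and 117 cells. For Il15ra the Xcr1 or Clec9a group had 340, 258 and 20.9 CPM, and the Sirpa group 174, 128 and 15.4 CPM. The intervals of the groups were apart for both genes in CpG and R848 and overlapped for both genes in Control. A CpG cluster of 46 mature DC that carried Xcr1 (336 CPM) differed from the group chosen by single UMIs: its Il15 was 81.7 CPM (56.9 to 114) and its Il15ra 152 CPM (117 to 194), a level below the 174 CPM of the Sirpa group with overlapping intervals. Its Ccr7 was 2459 CPM. Most mature DC had neither trace (2356, 1766 and 328 cells), with 90.5, 85.9 and 26.6 CPM of Il15. The Xcr1 or Clec9a group also had more Ccr7 in CpG and R848 (4916 and 4151 CPM, against 3467 and 2436 CPM in the Sirpa group), but not in Control (1231 against 1446 CPM), so a difference in maturation goes with it and its part was not tested.

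Clusters of mature DC, made without Il15 and Il15ra, showed that the 2 transcripts did not always go together. In the CpG library a cluster of 589 cells held 151 CPM of Il15 (140 to 163) and 515 CPM of Il15ra (494 to 536), the highest Il15ra level of any cluster. Another cluster of 377 cells held Il15 at 144 CPM (125 to 164) but Il15ra at only 133 CPM (115 to 152). In R848 a cluster of 349 cells held 159 CPM of Il15 and 490 CPM of Il15ra, and one of 230 cells 108 and 103 CPM. There the Il15 intervals were apart as well (142 to 177 and 86.9 to 132 CPM), so this pair differed in both genes. Conversely, a CpG cluster of 701 cells held Il15 at 47.9 CPM and Il15ra at 249 CPM. In Control the mature DC fell in a cluster of 76 cells with 51.8 and 71.7 CPM and one of 492 cells with 9.01 and 19.1 CPM.

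The 2 clusters with high Il15 but less Il15ra also had little Malat1, a long noncoding RNA that stays in the nucleus. Malat1 stood at 1331 CPM in the CpG cluster of 377 cells and at 4568 CPM in the R848 cluster of 230 cells, against 83533 and 101971 CPM in the clusters with most Il15ra. A further CpG cluster with little Malat1 (61 cells, 1963 CPM) was low in both genes, at 19.9 CPM of Il15 and 55.7 CPM of Il15ra. Over all mature DC of CpG, Il15ra was 372 CPM in cells with at least 3% of UMIs from Malat1 and 112 CPM in cells with under 1%, a ratio of 3.33 (2.95 to 3.78). In R848 the values were 256 and 85.3 CPM, a ratio of 3.002 (2.42 to 3.76). Between these ends Il15 differed little: it was 111 and 97.3 CPM in CpG (ratio 1.14; 0.992 to 1.32) and 91.9 and 91.2 CPM in R848 (ratio 1.01; 0.814 to 1.26). In the cells between them, with 1 to 3% Malat1, Il15 was lower than at either end, at 40.7 CPM in CpG (35.7 to 46.1) and 48.9 CPM in R848 (40.8 to 58.2), and Il15ra was 165 and 92.0 CPM. Cells with under 1% were shallower, with a median of 4047 against 5452.5 UMIs in CpG and 3430 against 5545.5 in R848.

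In Control, 53 of the 58 Il15 UMIs and 74 of the 90 Il15ra UMIs of mature DC came from the 227 cells with at least 3% Malat1, at 41.3 and 57.6 CPM. These cells were also further along the maturation scale, with a median of 149 maturation UMIs per 10000 against 83.4 in the 233 cells with 1 to 3% Malat1, where only 3 Il15 UMIs were counted. When all 3 libraries were limited to mature DC with at least 3% Malat1, the log2 ratio of Il15 to Control was 1.43 (CpG) and 1.15 (R848), and that of Il15ra 2.69 and 2.15. The share of mature DC with under 1% Malat1 was 18.5% (CpG), 10.9% (R848) and 12.5% (Control). Whether these cells had lost nuclear RNA during preparation was not tested.

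**Figure D3:**
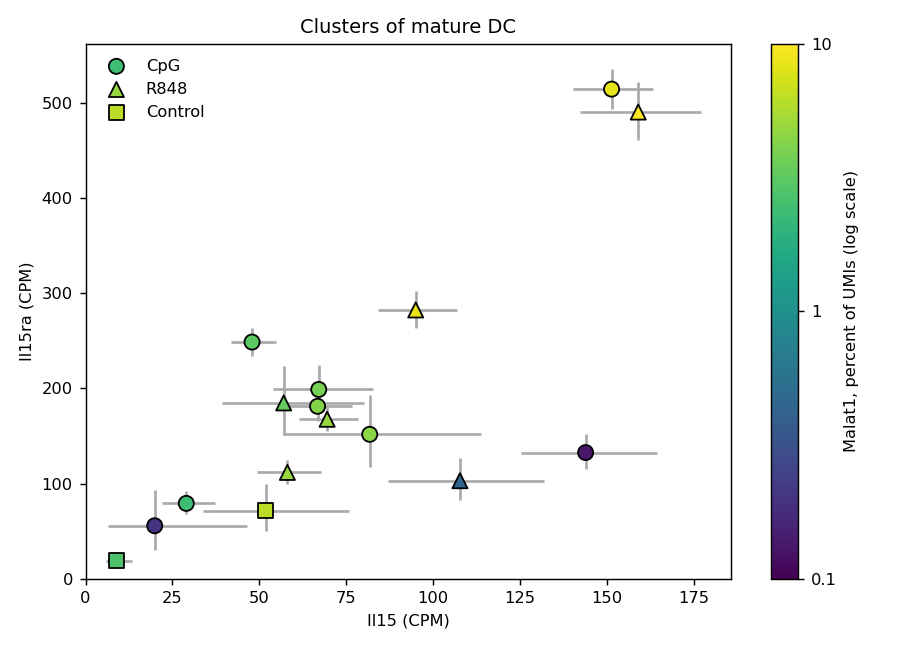
Clusters of mature DC with at least 40 cells, placed by their Il15 (x axis, CPM) and Il15ra (y axis, CPM), with shape for the library (CpG, R848, Control) and colour for Malat1 as a percent of UMIs on a log scale; bars are exact 95% counting intervals. The clusters at 144 and 108 CPM of Il15 with dark colour (little Malat1) lie far below the clusters at 151 and 159 CPM of Il15 in Il15ra.

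In lysozyme phagocytes the agonists ranked the 2 genes in opposite order. Cd4-positive lysozyme phagocytes held Il15 at 9.75 CPM after CpG (7.19 to 12.9; 48 UMIs in 380 cells), 15.7 CPM after R848 (12.97 to 18.8; 117 UMIs in 597 cells) and 3.96 CPM in Control (21 UMIs in 537 cells). Their Il15ra was 71.5 CPM after CpG (64.2 to 79.4; 352 UMIs), 33.9 CPM after R848 (29.9 to 38.4; 253 UMIs) and 21.7 CPM in Control (115 UMIs). For Il15 the ratio of CpG to R848 was 0.622 (0.435 to 0.877), and for Il15ra it was 2.11 (1.79 to 2.49). The Il15 intervals of CpG and R848 were next to each other without overlap, and those of Il15ra were far apart.

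Cd4-negative lysozyme phagocytes, the class that holds LysoDC, gave the same picture at lower levels. Il15 was 5.59 CPM after CpG (4.30 to 7.14; 64 UMIs in 840 cells), 10.3 CPM after R848 (8.67 to 12.1; 147 UMIs in 1120 cells) and 2.84 CPM in Control (40 UMIs in 1389 cells). Il15ra was 29.3 CPM after CpG (26.3 to 32.7; 336 UMIs), 18.4 CPM after R848 (16.2 to 20.7; 263 UMIs) and 10.1 CPM in Control (143 UMIs). The ratio of CpG to R848 was 0.545 for Il15 (0.400 to 0.735) and 1.60 for Il15ra (1.36 to 1.89). In both phagocyte classes the opposite order was kept under all 7 alternatives tried for it, among them the removal of free RNA, stricter cutoffs and cluster-based classes.

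Set against Control, the ratios in Cd4-positive phagocytes were 2.46 (CpG; 1.44 to 4.32) and 3.96 (R848; 2.47 to 6.63) for Il15, and 3.29 (2.66 to 4.10) and 1.56 (1.25 to 1.97) for Il15ra. In Cd4-negative phagocytes they were 1.97 (1.31 to 3.001) and 3.62 (2.53 to 5.26) for Il15, and 2.89 (2.37 to 3.54) and 1.81 (1.47 to 2.23) for Il15ra. All intervals lay above 1. Both genes passed the 2-fold ratio in Cd4-positive phagocytes after CpG, where 4.38% of genes did, and Il15 alone after R848, where 7.17% did. In Cd4-negative phagocytes Il15ra alone passed after CpG (3.13% of genes) and Il15 alone after R848 (5.02% of genes). Within every library Il15ra was higher in the Cd4-positive than in the Cd4-negative class, by a factor of 2.44 (CpG; 2.09 to 2.84), 1.85 (R848; 1.55 to 2.20) and 2.14 (Control; 1.66 to 2.75). For Il15 this factor was 1.74 (1.17 to 2.58), 1.53 (1.19 to 1.96) and 1.40 (0.783 to 2.43), the last with an interval that included 1.

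**Figure D4:**
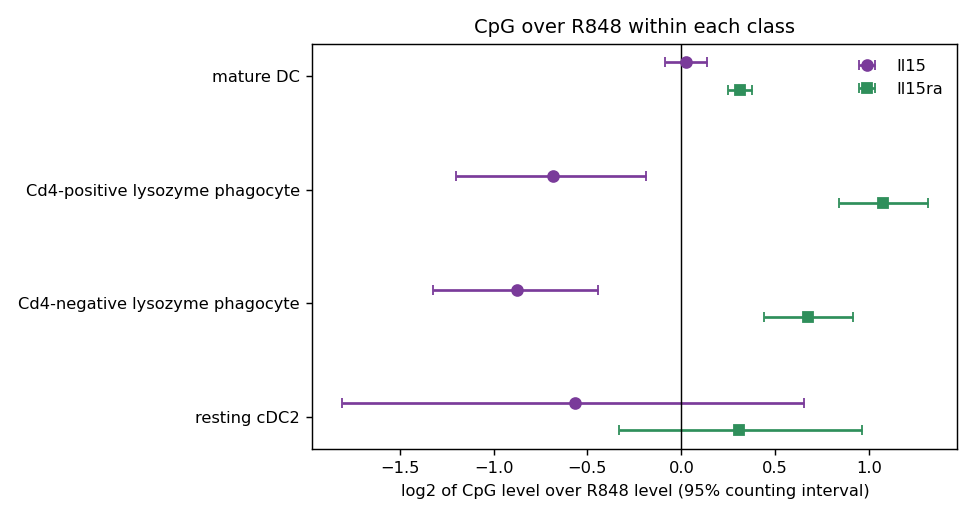
Log2 ratio of CpG to R848 for Il15 (circles) and Il15ra (squares) in 4 classes, with exact 95% counting intervals; 0 means equal levels. In both classes of lysozyme phagocytes Il15 lies left of 0 (ratios 0.622 and 0.545) and Il15ra right of it (2.11 and 1.60), while in resting cDC2 both intervals include 0.

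Once likely doublets were removed, lysozyme phagocytes that also passed the maturation cutoff were mostly found after R848 (195 cells, against 34 after CpG and 30 in Control). With those doublets kept the class held 248 (R848), 111 (CpG) and 41 cells (Control), so the size of this contrast depends on the removal. The R848 cells held 35.3 CPM of Il15 (27.9 to 44.0) and 78.1 CPM of Il15ra (67.0 to 90.6), 3.44 times (2.58 to 4.55) and 4.26 times (3.50 to 5.17) the levels of Cd4-negative phagocytes of that library. The CpG cells held 15.7 CPM of Il15 (7 UMIs) and 67.2 CPM of Il15ra (30 UMIs), and the Control cells 7.06 and 14.1 CPM from 2 and 4 UMIs. Along the maturation scale within R848 lysozyme phagocytes, Il15 was 9.49 CPM at 10 to 20 maturation UMIs per 10000, 32.0 CPM at 40 to 80 and 67.1 CPM at 120 to 160, the last in 22 cells. Doublets of a lysozyme phagocyte with a mature DC would carry the same markers, and the part of any that remained in this class was not tested.

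In lysozyme phagocytes and mature DC of the treated libraries both genes were highest in the cells with most interferon-stimulated transcripts. These were measured by the summed UMIs of Isg15, Ifit1, Ifit2, Ifit3, Rsad2, Oasl1, Usp18, Mx1 and Cmpk2, a list added after the data were seen. In Cd4-negative phagocytes with 20 or more such UMIs per 10000, Il15 was 9.42 CPM after CpG (6.85 to 12.7) and 21.1 CPM after R848 (17.0 to 26.0). With 5 to 20 it was 2.73 CPM (1.56 to 4.43) and 6.30 CPM (4.71 to 8.27). Il15ra was 45.4 and 28.5 CPM in the upper bin and 18.1 and 14.7 CPM in the middle bin for CpG and R848. Both genes were thus lower in the middle bin in each treated library, with intervals apart, and in the upper bin the opposite order of the agonists remained. In the lowest bin, under 5 such UMIs, Il15 was 4.39 (CpG), 3.21 (R848) and 2.57 CPM (Control), with overlapping intervals. Il15ra there was 19.8 (CpG; 11.7 to 31.2), 11.8 (R848; 7.38 to 17.8) and 9.67 CPM (Control; 8.07 to 11.5), so that the interval of CpG lay above that of Control and that of R848 overlapped both.

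Mature DC showed the same gradient. With 20 or more interferon-list UMIs Il15 was 102 CPM (CpG) and 103 CPM (R848), and with under 5 it was 40.1 CPM (CpG), 65.8 CPM (R848) and 16.9 CPM (Control). Il15ra was 308 and 252 CPM in the upper bin of CpG and R848, and 161 (CpG), 138 (R848) and 26.2 CPM (Control) in the lowest. For Il15 in R848 the lowest bin and the middle one, at 67.5 CPM, were alike in level, with overlapping intervals. In the lowest bin the treated libraries also stood above Control, with intervals apart for both genes. The cells of that bin differed in maturation, with medians of 195 (CpG), 168 (R848) and 94.0 (Control) maturation UMIs per 10000. Maturation transcripts went along with the interferon list in these cells, with medians of 263 and 195 per 10000 in the upper and lowest CpG bins, and the 2 were not separated.

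A small group of untreated phagocytes showed high Il15 without any agonist. A Control cluster of 48 cells, with Cd4-negative lysozyme phagocytes as its largest class, was led by interferon-stimulated transcripts. Isg15 stood at 1044 CPM and Cxcl10 at 1557 CPM. The cluster levels are sums over all cells of a cluster, whatever their class. The cluster of 48 cells held 29.4 CPM of Il15 (15.6 to 50.2; 13 UMIs) and 31.6 CPM of Il15ra (17.3 to 53.1; 14 UMIs). The 2 large Control clusters with the same largest class, of 737 and 437 cells, held 2.06 and 2.61 CPM of Il15 and 9.10 and 10.2 CPM of Il15ra. A Control cluster of 668 cells, with Cd4-positive phagocytes as its largest class, held 4.04 CPM of Il15 (2.64 to 5.92) and 21.3 CPM of Il15ra (17.9 to 25.2). The interval of the 48 cells lay above that of the 668 cells for Il15 and overlapped it for Il15ra. Without the cluster of 48 cells the log2 ratios of CpG and R848 to Control in Cd4-negative phagocytes were 1.15 and 2.02 for Il15, and 1.57 and 0.89 for Il15ra.

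**Figure D5:**
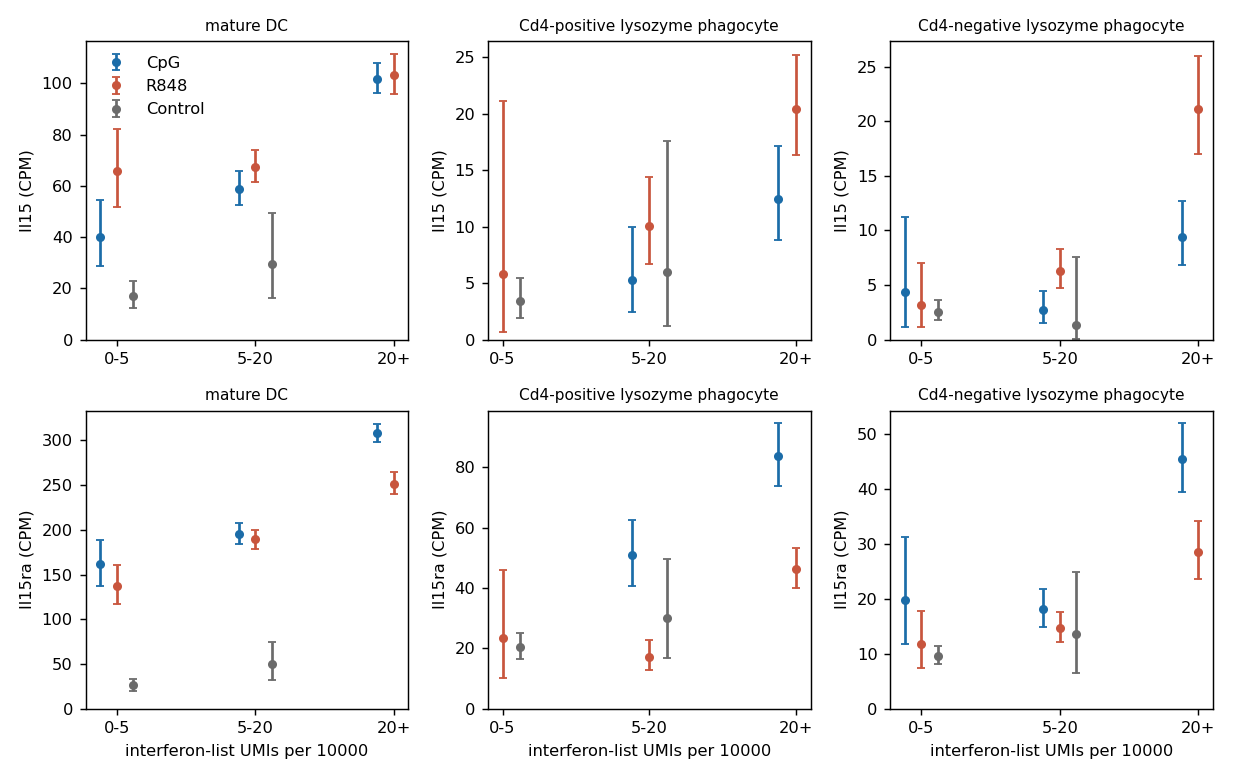
Il15 (top row) and Il15ra (bottom row) in CPM by the number of interferon-list UMIs per 10000 UMIs, in mature DC and in Cd4-positive and Cd4-negative lysozyme phagocytes, for CpG, R848 and Control; points are sums over the cells of a bin and bars exact 95% counting intervals, and bins under 20 cells are not drawn. In Cd4-negative phagocytes with 20 or more such UMIs, R848 stands at 21.1 CPM of Il15 against 9.42 CPM for CpG, and CpG at 45.4 CPM of Il15ra against 28.5 CPM for R848.

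Presentation by one cell needs both transcripts, and they were found together in mature DC more often than their separate shares would give. To compare cells at 1 depth, each was thinned to 4000 UMIs, which left out 633 (CpG), 598 (R848) and 155 (Control) shallower mature DC. Of the rest, 15.4% after CpG (340 of 2202 cells), 15.3% after R848 (266 of 1738) and 2.16% in Control (8 of 371) had both. The product of the separate shares was 13.1%, 12.5% and 0.480%. Without thinning 25.4%, 24.4% and 3.04% had both.

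An Il15ra UMI was seen in 62.2% of Il15-positive and 49.4% of Il15-negative mature DC after CpG, an odds ratio of 1.68 (1.38 to 2.06). After R848 the shares were 57.7% and 43.4% (odds ratio 1.78; 1.43 to 2.22), and in Control 40.0% and 7.12% (8.69; 2.78 to 25.4), the last from 8 double-positive cells. Each library's interval lay above 1. In cells with at least 3% Malat1 alone, the odds ratios were 2.29 (CpG), 2.05 (R848) and 3.67 (Control). Within mature DC of like maturation, at 200 to 300 maturation UMIs per 10000, Il15ra was seen in 65.3% of Il15-positive and 56.4% of Il15-negative cells after CpG and in 64.1% and 47.1% after R848. Il15 and Il15ra UMIs of a cell share its capture and free RNA, so the excess is a description of these cells.

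In resting cDC2 and in lysozyme phagocytes below the maturation cutoff, cells with both were rare at this depth. In thinned resting cDC2 none of 361 (CpG), 312 (R848) and 1284 (Control) cells had both, which allows shares of cells with UMIs of both of up to 0.831%, 0.962% and 0.234%. The products of the separate shares there, 0.0844%, 0.0935% and 0.0237%, correspond to fewer than 1 cell per library, so the thinned counts say little. With all UMIs 2, 1 and 1 resting cDC2 had both. In Cd4-positive phagocytes 5 of 377, 4 of 585 and 1 of 526 cells had both, and in Cd4-negative phagocytes 6 of 794, 8 of 1083 and 1 of 1284. The product of the separate shares, 1.28%, 0.888% and 0.0961% in Cd4-positive phagocytes, lay inside the interval of the observed share in each library. With all UMIs their odds ratio was 1.35 (0.670 to 2.79), 1.70 (1.06 to 2.71) and 1.84 (0.570 to 5.19) in CpG, R848 and Control. In Cd4-negative phagocytes the odds ratio was 2.16 (0.689 to 5.80) after CpG, 2.62 (1.02 to 5.93) after R848 and 1.53 (0.0358 to 10.1) in Control. With all UMIs it was 3.37 (1.89 to 6.04), 1.97 (1.26 to 3.03) and 2.32 (0.842 to 5.51), so the interval of R848 lay above 1 both ways and that of CpG with all UMIs only. Higher shares were seen in classes with maturation transcripts: 13 of 143 thinned proliferating cells of CpG (9.09%; odds ratio 5.55, 1.92 to 16.3) and 10 of 183 mature lysozyme phagocytes of R848 (5.46%; odds ratio 1.87, 0.685 to 4.89) had both. Of thinned B cells, 1 of 54 (CpG), 0 of 62 (R848) and 0 of 59 (Control) had both.

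Among mature DC, those with certain other cytokine transcripts differed in Il15, and with some of these in Il15ra as well. The examples were chosen after their values were seen. With an Il27 UMI, 35.0% of thinned mature DC after CpG and 38.0% after R848 had Il15, against 22.4% and 25.6% of those without. Il27 encodes a subunit of interleukin-27. For Il15ra these shares were 68.2% and 68.2% with Il27, against 48.7% and 45.5% without, with intervals apart for both genes and both agonists. The reverse held for Ccl17, which encodes a ligand of the chemokine receptor CCR4: Il15 was seen in 19.4% (CpG) and 20.4% (R848) of cells with Ccl17 and 28.4% and 28.1% of cells without. Cells with Il12b, the shared chain of interleukin-12 and interleukin-23, had Il15 less often after CpG (16.1% against 25.7%), with intervals apart. After R848 those shares were 26.8% and 26.5%, with overlapping intervals. For Il6 the CpG shares were 19.0% with and 28.8% without it, with intervals apart, and the R848 shares 23.0% and 26.9%, with overlapping intervals. The Il15ra intervals overlapped for both Il12b and Il6 after either agonist. After CpG Il15ra was seen in 45.1% of cells with and 53.3% without Il12b, and in 51.3% with and 53.4% without Il6.

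Proliferating cells and B cells gave further levels with mixed make-up. Proliferating cells held 54.5 (CpG), 25.3 (R848) and 1.20 CPM (Control) of Il15, from 87, 30 and 2 UMIs, and 97.1, 30.4 and 6.61 CPM of Il15ra. Their median maturation transcripts were 117, 13.3 and 10.5 per 10000, and their median lysozyme phagocyte transcripts 13.4, 417 and 669 per 10000. The CpG class thus held mostly maturing DC and the Control class mostly lysozyme phagocytes. The R848 class was mixed, with a median close to the lysozyme cutoff of 400 per 10000. The levels do not compare like cells.

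Of 42 genes around interleukin-15, its receptor chains, its signalling and its interferon and NF-κB control, 30 were measured in mature DC. After CpG 8 were past the 2-fold ratio upward and 1 downward, and after R848 8 upward and 2 downward, against the 10.5% and 8.35% of all genes upward and 11.3% and 13.4% downward. Il2rb, the chain needed by the responding cell, was near 0 in mature DC with 1 UMI in CpG, 1 in R848 and none in Control. Il2rg, the common gamma chain, stood at 172, 257 and 159 CPM in CpG, R848 and Control, under a 2-fold ratio. Il2ra, the interleukin-2 receptor alpha chain, stood at 78.8, 27.2 and 5.63 CPM, a ratio of 14.0 (8.71 to 24.1) for CpG and 4.84 (2.98 to 8.39) for R848. It was the one listed gene past the 2-fold ratio between CpG and R848 in mature DC, as were 4.48% of all genes.

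Of 12 measured interferon signalling genes, 5 were higher and 1 lower after each agonist. Irf1, a transcription factor known to act on Il15 and Il15ra in mice, stood at 363, 377 and 158 CPM. Irf7, an interferon regulatory factor itself induced by interferon, stood at 455, 655 and 17.2 CPM. Stat2, which carries the type I interferon signal to the nucleus, stood at 59.97, 68.5 and 14.2 CPM. Ifngr1, a chain of the interferon gamma receptor, was lower, at 44.1, 48.7 and 359 CPM. All 5 NF-κB subunits measured stayed under a 2-fold ratio after either agonist, with Relb at 861, 950 and 749 CPM. The signalling kinase gene Jak1 (139, 89.2 and 92.0 CPM) and Stat5a (111, 60.6 and 110 CPM) did not pass it either, and Stat3 did, at 382, 272 and 128 CPM. Of the other ligands that activate T and natural killer cells, Cd70 was higher at 45.1, 28.3 and 9.93 CPM, and Tnfsf9 stood at 69.8, 38.1 and 102 CPM.

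Across 23 points, each a class of at least 50 cells in a library, 7037 genes were ranked by the Pearson correlation of their log2 (CPM + 5) with each member. The points share libraries, depth and cell classes, so the ranking is a description. Closest to Il15 were Tyk2, a kinase of the interferon receptors (r = 0.951), the integrin beta chain Itgb1 (0.928), the matrix proteoglycan gene Agrn (0.918), Tspan3 (0.917) and Kpna3 (0.916), and Il15ra had rank 8 (0.914). Closest to Il15ra were Chpt1 (0.954), the guanylate-binding protein gene Gbp5 (0.939), Scamp2 (0.927), Il15 itself (0.914, rank 4) and Agrn (0.914). Tyk2 stood at 35.9, 40.9 and 16.5 CPM in mature DC of CpG, R848 and Control and at 9.20, 9.85 and 6.99 CPM in resting cDC2. Gbp5 stood at 156, 111 and 15.9 CPM in mature DC and at 10.9, 6.93 and 2.26 CPM in resting cDC2, higher after CpG than after R848 as Il15ra was.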

How the data were processed

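The authors deposited 1 matrix of whole-number UMI counts per library, with a row per gene and a column per cell barcode, made with Cell Ranger 2.0.0 on the mm10 mouse genome, per the submitters' processing notes. The counts were not normalized. The assay reads polyadenylated RNA from its 3′ end, so counts are per gene and not per transcript, and each UMI stands for 1 captured molecule.

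Cells with at least 500 genes and at most 10% mitochondrial UMIs were kept. Doublet scores were computed with scanpy 1.11.5 (Python 3.11.15), and the highest-scoring cells, 0.8% per 1000 cells, were removed (202, 209 and 225 cells in CpG, R848 and Control). Classes were set by summed marker UMIs, with 110 of 113 listed markers present in the matrix. Cells with B, plasma, T, natural killer, neutrophil or plasmacytoid DC markers stayed outside the phagocyte classes. UMIs were summed per class and library and given as CPM of the class sum. Intervals are exact at 95%: Poisson for levels, conditional binomial for ratios, Clopper-Pearson for shares and the conditional exact interval for odds ratios. Cells are not replicates, so none of these is a test of a treatment. A gene counted as past the 2-fold ratio when it had at least 5 CPM on either side and an interval without 1. The free RNA estimate uses C1qa, C1qb and C1qc in mature DC. An upper limit for a count of 0 is 3 counts of the total. The ratio step was tested on simulated counts.

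Clusters came from 2000 variable genes without Il15 and Il15ra, 30 principal components, 15 neighbours and the Leiden method at resolution 1. The members, the markers and the list of 42 genes were chosen with earlier results of these data known, and the interferon list and Malat1 split after seeing them. Genes of the list were named at 20 CPM or more in a class, and for each member the 5 most correlated genes; 1 gene of the list is not reported here by name. Alternatives changed the gene minimum, doublets, cutoffs, cluster-based classes, per-cell averaging, free RNA, the pseudocount and the thinning depth. Sequences are from RefSeq (GRCm38.p6), with 1 of 2 members matched. Gene positions are from the GENCODE annotation of GRCm38.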

Additional observations from a re-analysis of the deposited data

How the results depend on the processing

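No paired analysis was possible because each condition is 1 library without replicate numbers. There was also no replicate to leave out. Of 198 recomputed log2 ratios (28 ratios, each under up to 9 alternatives), 197 kept their direction; the exception was Il15 of CpG over R848 in mature DC, at -0.05 with cluster-based classes, a ratio whose reported interval (-0.09 to 0.13) includes 0. Of all recomputed ratios and odds ratios 183 lay inside the 95% counting interval of the reported value and 27 outside it.

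The treated-to-Control ratio in mature DC moved most. With stricter cutoffs its log2 value for Il15 was 1.62 (CpG) and 1.59 (R848), and for Il15ra 2.499 and 2.19. In mature DC with at least 3% Malat1 these were 1.43, 1.15, 2.69 and 2.15, and in those with at least 200 maturation UMIs per 10000 they were 1.04, 1.01, 1.81 and 1.53; both restrictions were chosen after seeing the data. Fewer and more mature Control cells enter under each. The high Malat1 cells also moved the CpG over R848 values to 0.28 for Il15 and 0.54 for Il15ra, and the mature over resting cDC2 values to 4.33 for Il15 in Control, 4.56 for Il15ra in CpG and 2.90 for Il15ra in Control. Cluster-based classes gave 0.24 for Il15ra of CpG over R848. Adding 5 CPM pulled low levels together by construction: Il15 of R848 over Control became 1.21 in Cd4-positive and 0.96 in Cd4-negative phagocytes, and Il15ra of CpG over Control 1.18 in Cd4-negative phagocytes.

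The co-detection odds ratio in mature DC grew with the UMIs used in the treated libraries. With all UMIs it was 2.49 (CpG) and 2.30 (R848), in cells thinned to 8000 UMIs 4.54 (CpG), 2.45 (R848) and 1.39 (Control), and in the high Malat1 cells 2.29 (CpG). The Control value at 8000 UMIs rests on 1 double-positive cell of 94 and has an interval of 0.0275 to 13.4. The cause was not tested.

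Low counts limit the resting classes: Il15 in resting cDC2 rests on 12 to 20 UMIs per library. The median depth of these cells was 9314 (CpG), 8108.5 (R848) and 6644 UMIs (Control), above that of mature DC in each library.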
